A study of Mus musculus with 33 samples.

Results

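The genes described here are 45 genes of cell division, a module of DNA replication and mitosis genes taken by symbol from a written list. All 45 were found once in each of 2 count tables, among 18054 gene rows of the first experiment and 18052 of the second. They were read in 33 libraries made by CEL-seq2, which primes from the 3′ end of messenger RNA, from CD8 T cells (CD45+CD8+) sorted out of mouse skin, in 16 sorted sets. The first experiment (17 libraries) used Nur77GFP mice allergic to the hapten dinitrofluorobenzene (DNFB). In these mice the Nur77 promoter drives GFP, a reporter of recent signalling through the T cell receptor. All of its libraries were resident memory T cells carrying CD69 and CD103. They were taken on day 0, just before the skin was exposed to DNFB again, on day 1 (24 hours after) and on day 6 (144 hours after). The skin had received the topical glucocorticosteroid TA at 0.01% or its vehicle acetone. Day 0 and day 6 cells were GFP-negative, and day 1 cells were sorted into GFP-negative and GFP-positive. Day 0 acetone had 3 libraries and every other set had 2. The second experiment (16 libraries, 2 per set) used wild-type C57BL/6 mice sensitized to DNFB. It held 4 untreated subsets sorted by CD69 and CD103 on day 2 after challenge, and CD69+CD103+ cells on day 11 and day 42 after treatment with acetone or TA. No label says whether the libraries of a set came from separate animals, and the p-values therefore cover no more than the spread among these libraries.

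The headers of the count tables carry codes, and only some of them can be read. Day 0 acetone, the GFP state on day 1 and the day 2 CD69+CD103+ set were readable. The day 1 treatment arms carry the names arm I and arm II here. Which is TA and which acetone is not known. Sets K, L and M are day 0 TA, day 6 acetone and day 6 TA in unknown order. U, V and W are the other day 2 subsets, and P, Q, R and S are day 11 and day 42 with acetone or TA, again in unknown order. No direction below can therefore be read as an effect of TA or of time between these sets.

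Library totals were 2442825 to 8515297 counts in the first experiment and 2937814 to 13629838 in the second. The libraries of set K (2560156 and 2952120 counts) and of arm II (2442825 to 3262545) were the shallowest of the first experiment. Of the 45 genes, 31 to 45 were detected per library in the first experiment and 41 to 45 in the second, and together they held 0.127 to 0.997% and 0.314 to 0.686% of all counts. All 10 T cell markers were detected in every library, with Cd3e at 385 to 1670 CPM (a gene's counts scaled by library size) and Cd8a at 450 to 957 CPM. Itgae, which encodes the integrin chain CD103, was at 68.3 and 88.3 CPM in the day 2 CD69+CD103+ set, and at 1.13 to 7.09 CPM in subsets U and V. Markers of other skin cells were also present. Of 16 keratinocyte genes 12 to 16 were detected per library, with a summed level of 356 to 5810 CPM in the first experiment and 2100 to 7350 CPM in the second. The B cell gene Ms4a1 was at 0 in 30 of 33 libraries and Cd4 was at 0 in 26 of 33. Of the 13 phagocyte genes in the tables, Lyz2 was at 0 in 19 libraries and Csf1r in 6, while H2-Aa, H2-Eb1, Cd74, Cd68 and Fcer1g were at 0 in no library, with medians of 12.5 to 89.8 CPM.

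Cells that divide copy their DNA in S phase and separate it in mitosis. The MCM proteins form the helicase ring that is loaded on replication origins, ribonucleotide reductase and thymidylate synthase supply nucleotides, and Pcna is the sliding clamp of the DNA polymerases. Cyclins switch on Cdk1 for entry into mitosis, Aurora and Polo-like kinases with kinesin motors build the spindle, and the anaphase-promoting complex with Cdc20 and Ube2c ends mitosis by marking cyclins for degradation. Resident memory T cells in skin are long-lived and mostly at rest, and they can divide locally after meeting antigen again. Many of these genes are transcribed only in cycling cells, under E2F factors and under the DREAM and MuvB complexes, which bind the promoter elements called CDE and CHR beside CCAAT boxes read by NF-Y. Bulk libraries cannot tell a smaller share of cycling cells from less RNA per cell.

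The promoters of 4 genes are printed because the genes followed different patterns below. Ccnb2 (a B-type cyclin) and Cdk1 (its kinase partner) had few counts in several sets, Cks2 (a small subunit of Cdk complexes) kept its counts in every set, and Mcm6 is an MCM gene whose level differed between day 2 and the later sets. Each is the stretch of 250 bases directly before the RefSeq start site on GRCm38.p6, written 5′ to 3′ on the gene's own strand. Capitals mark CCAAT (or ATTGG, its reverse), TTTGAA, the core of the CHR element, and E2F-type words on either strand. The E2F-type words searched were TTCCCGC along with TTGGCGC, then TTCGCGC as well as TTGCCGC.
Ccnb2, chr9:70421555-70421804, minus strand: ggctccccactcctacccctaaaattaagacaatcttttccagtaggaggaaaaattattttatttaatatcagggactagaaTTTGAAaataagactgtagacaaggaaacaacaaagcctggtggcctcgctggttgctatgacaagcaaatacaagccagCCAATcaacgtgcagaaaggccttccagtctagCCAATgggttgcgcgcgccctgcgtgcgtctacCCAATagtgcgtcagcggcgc
Cdk1, chr10:69352913-69353162, minus strand: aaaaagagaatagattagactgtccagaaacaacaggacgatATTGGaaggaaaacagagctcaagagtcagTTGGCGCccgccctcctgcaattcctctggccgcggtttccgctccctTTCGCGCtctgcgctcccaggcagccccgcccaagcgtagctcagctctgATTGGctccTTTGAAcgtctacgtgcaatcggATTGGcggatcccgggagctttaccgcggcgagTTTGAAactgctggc
Cks2, chr13:51644982-51645231, plus strand: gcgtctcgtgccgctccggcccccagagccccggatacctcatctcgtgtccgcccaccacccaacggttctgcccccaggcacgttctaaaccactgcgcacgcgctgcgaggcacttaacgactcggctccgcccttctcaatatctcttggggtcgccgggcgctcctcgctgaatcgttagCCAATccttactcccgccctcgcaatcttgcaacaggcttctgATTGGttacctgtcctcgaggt
Mcm6, chr1:128359706-128359955, minus strand: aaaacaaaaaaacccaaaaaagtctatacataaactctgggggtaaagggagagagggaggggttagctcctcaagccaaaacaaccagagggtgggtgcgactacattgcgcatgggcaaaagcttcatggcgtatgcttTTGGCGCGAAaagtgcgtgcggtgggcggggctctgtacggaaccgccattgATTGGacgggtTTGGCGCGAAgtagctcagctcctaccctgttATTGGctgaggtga
The Ccnb2 stretch held 3 CCAAT words and 1 TTTGAA. That of Cdk1 held 3 CCAAT words, 2 TTTGAA and 2 E2F-type words, that of Cks2 held 2 CCAAT words alone, and that of Mcm6 held 2 CCAAT words and 4 E2F-type words, which overlap in pairs on opposite strands. Over the 38 genes of the module that matched a RefSeq promoter, 31 (81.6%) held CCAAT, against 33.8% of 32851 promoters of the same length. TTTGAA stood in 11 of the 38 (28.9%, against 16%), an E2F-type word in 10 (26.3%, against 7.89%), and CCAAT with TTTGAA in 11 (28.9%, against 5.55%). All 5 matched MCM promoters held CCAAT and 3 held an E2F-type word, while none of the 4 matched genes of spindle checkpoint and anaphase promotion held one, all 4 holding CCAAT and 2 holding TTTGAA. A match is a word in these letters and not a measured binding site.

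The module was high in sets L and M, intermediate in day 0 acetone and in arm I GFP-negative cells, and low in set K and in both GFP states of arm II. Its mean log2 CPM over the 45 genes was 5.64 in set L (5.62 to 5.65 over its 2 libraries) and 5.81 in set M (5.78 to 5.83). Day 0 acetone was at 4.57 (4.37 to 4.78, SD 0.20, n = 3), and arm I GFP-negative cells were at 3.90 (3.88 to 3.93). Arm I GFP-positive cells were at 2.72 (2.57 to 2.87), set K at 2.18 (2.00 to 2.36), arm II GFP-positive cells at 1.93 (1.89 to 1.97) and arm II GFP-negative cells at 1.77 (1.68 to 1.86). No library of these 8 sets overlapped with a library of another set on this mean. The level averaged over all tested genes differed far less, from 2.93 to 3.41 over the sets of both experiments.

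In the second experiment the range was narrower, and no set came near the low values of the first. Set P was at 5.45 (5.40 to 5.51), the day 2 subset U at 5.33 (5.20 to 5.45) and the day 2 CD69+CD103+ set at 5.13 (5.08 to 5.18). Set S was at 4.87 (4.75 to 4.99), subset V at 4.85 (4.85 in both libraries) and subset W at 4.43 (4.37 to 4.48). Sets Q (4.13, 3.94 to 4.32) and R (4.03, 3.93 to 4.13) were the lowest. Neighbours overlapped in 3 places: P with U, S with V, and Q with R. The 2 experiments differ in the mice used and were counted in separate tables, and levels were not tested between them.

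**Figure D1:**
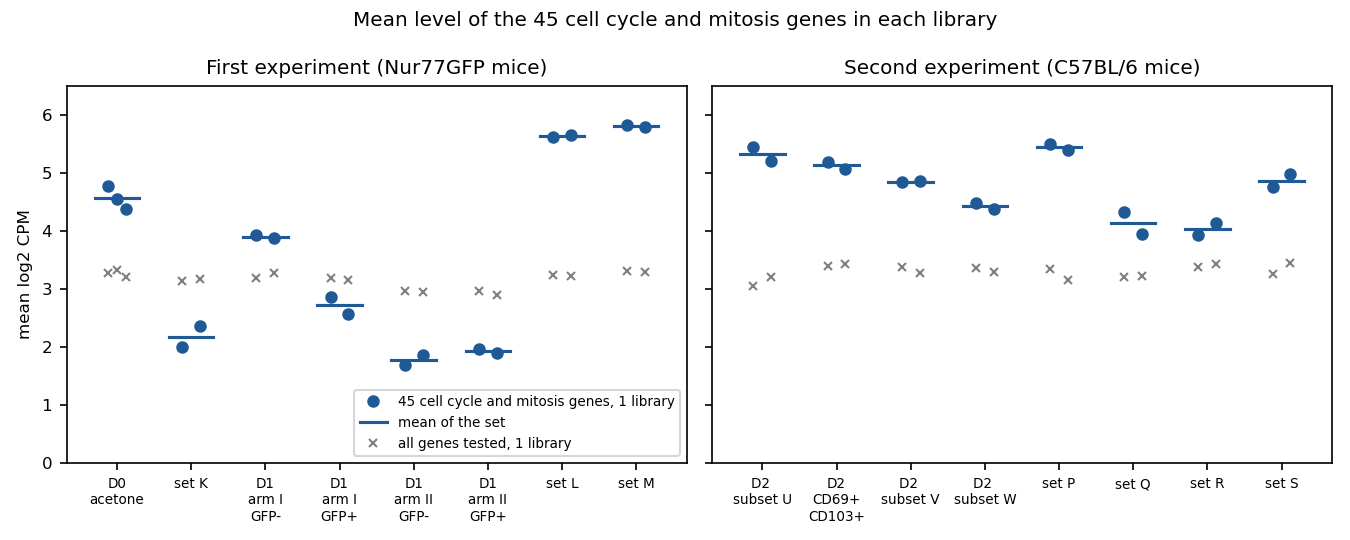
Mean log2 CPM of the 45 cell cycle genes, 1 dot per library, with a line at each set's mean and grey crosses for the mean of all genes tested, by sorted set in the first (left) and second (right) experiment. Sets L and M stand at 5.64 and 5.81 and arm II GFP-negative cells at 1.77, while the grey crosses of single libraries stay between 2.89 and 3.45.

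Most genes of the module were highest in L or M and lowest in K or arm II in the first experiment. In the second no single set was highest or lowest for most of them. In the first experiment the highest set mean was in M for 33 genes and in L for 10, and the lowest in arm II GFP-negative cells for 18, in arm II GFP-positive cells for 12 and in set K for 11. In the second experiment P was highest for 21 genes and U for 13, and R was lowest for 20, W for 12 and Q for 10. In arm II GFP-negative cells 9 of the 45 genes had no count at all in either library. Set K lacked 7 and arm II GFP-positive cells lacked 2. At this depth a gene without a count was below detection and cannot be called absent. The genes varied unequally between the sets of the first experiment. Cks2 had the narrowest range of set means (1.52 on the log2 scale), followed by Pcna (1.65), the histone variant gene H2afz (2.01) and Mcm6 (2.17), where Stmn1 spanned 5.65 and Mki67 4.83.

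**Figure D2:**
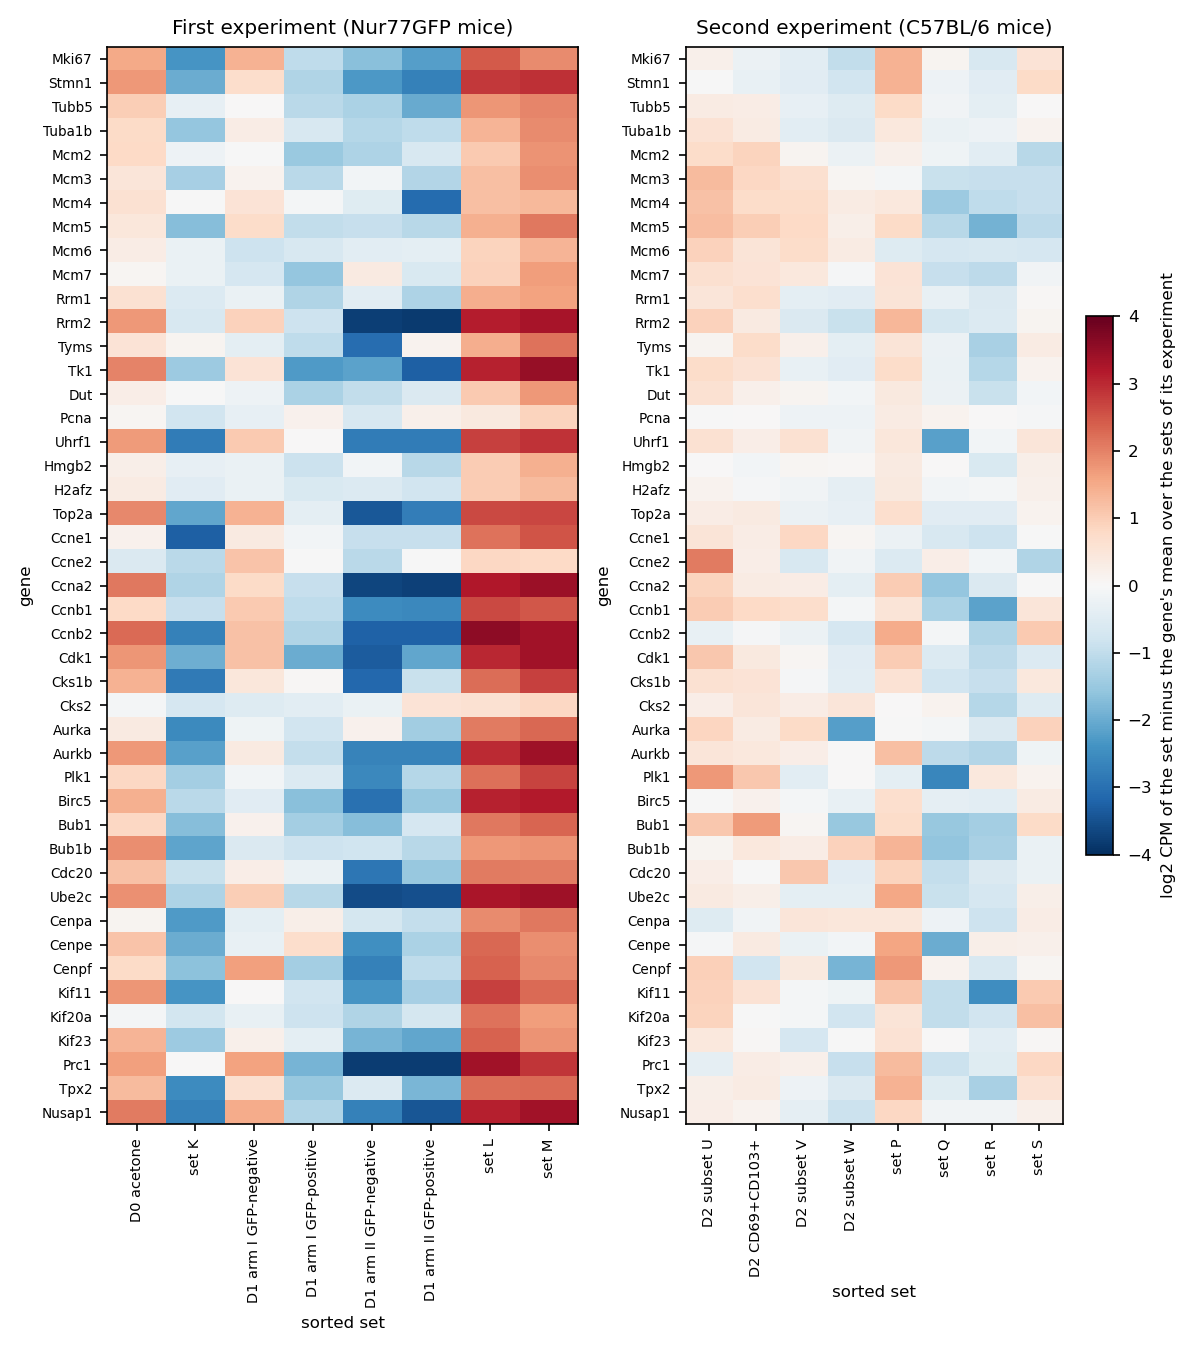
Log2 CPM of each of the 45 genes (rows, grouped by role) in each sorted set (columns), minus the gene's mean over the sets of the same experiment, with the colour scale ending at 4 above and 4 below. Most rows are high in L and M and low in K and arm II, and the rows of Cks2, Pcna and H2afz vary little in the first experiment, over 1.52, 1.65 and 2.01 on the log2 scale.

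Between the arms on day 1, GFP-negative cells differed in genes of nearly every role, all in 1 direction. Of the 44 genes tested (Ccne2 was too low), 19 were lower in arm II and 0 were higher, where 4.70% of all 11588 tested genes were lower and 1.98% higher (6.69% either way). The 19 were all 3 tubulin and stathmin genes, 4 of 7 cyclin, Cdk1 and Cks genes, 2 of 5 nucleotide supply genes, 2 of 5 clamp and chromatin genes, 2 of 4 mitotic kinase genes, 2 of 4 checkpoint and anaphase genes, 2 of 6 spindle genes, 1 of 3 centromere genes and Mki67. None of the 6 MCM genes was called. The median log2 fold change of the 44 genes was -2.88, or -1.58 with genes that lacked counts in arm II set to their lower limit, against -0.07 for all genes.

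Stmn1 (stathmin, which destabilises microtubules, chr4:134468320-134473843, plus strand, GRCm38) was at 145 and 101 CPM in arm I GFP-negative cells and at 14.4 and 14.7 CPM in those of arm II. The log2 fold change was -3.08 ± 0.23 (SE, adjusted p = 2.44e-08). Cdk1 was at 45.2 and 36.8 CPM against 1.65 and 1.19 CPM (-4.83 ± 0.67, adjusted p = 0.000115), and both arm II libraries lay far below both of arm I. Ccnb2 was lower as well, at 13.3 and 25.8 CPM against 0 and 1.59 CPM (-4.56 ± 0.78, adjusted p = 0.000788). Top2a, the topoisomerase that untangles sister chromatids, was at 25.4 and 42.0 CPM against 0.825 and 0.794 CPM (-5.34 ± 0.53, adjusted p = 1.21e-06). Ube2c was at 40.1 and 43.6 CPM against 1.24 and 1.59 CPM (-4.86 ± 0.51, adjusted p = 2.25e-06). These 5 genes span the spindle, the mitotic kinase, chromosome untangling and mitotic exit. Tuba1b and Tubb5, the abundant alpha and beta tubulins, were lower by a smaller factor (-1.43 ± 0.16 and -1.30 ± 0.17). Tubulin genes have close copies, and the counting of reads shared between copies is not given in the sources used, so their values are uncertain. The same holds for H2afz and Hmgb2.

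The other lower genes had few or no counts left in arm II. Rrm2, the regulatory subunit of ribonucleotide reductase, was at 71.8 and 80.7 CPM in arm I and at 3.30 and 1.98 CPM in arm II (-4.84 ± 0.76, adjusted p = 0.0012). Mki67, the usual marker of cycling cells, was at 15.5 and 23.5 CPM against 0.825 and 3.97 CPM (-3.00 ± 0.72, adjusted p = 0.0151). Birc5 (survivin, of the chromosomal passenger complex) was at 8.33 and 7.0 CPM against 0.412 and 1.98 CPM (-2.63 ± 0.76, adjusted p = 0.0431). For these 3 genes too, each arm II library lay below each arm I library. Cks1b, a Cdk subunit, was lower by -3.95 ± 0.53 on the log2 scale. Ccna2, Prc1 and Cdc20 had 1 count each in arm II, so arm I exceeded it 59.7-fold (95% counting interval 10.5 to 2380), 116-fold (20.6 to 4580) and 24.0-fold (4.13 to 963). Uhrf1, Cenpf and Aurkb had none and were at least 8.97-fold, 12.8-fold and 4.63-fold higher in arm I, taking 3 counts over the set as the floor. These intervals and floors cover counting error only. Nusap1 and Tk1 completed the 19.

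Several genes of replication and chromatin did not pass the test. Pcna was at 212 and 201 CPM in arm I and at 167 and 159.5 CPM in arm II (-0.34 ± 0.15, adjusted p = 0.215). H2afz was at 432 CPM in both arm I libraries against 307 and 416 CPM (-0.26 ± 0.16, adjusted p = 0.397), and Hmgb2, a chromatin protein, at 34.5 and 42.6 CPM against 46.2 and 40.1 CPM (0.16 ± 0.27, adjusted p = 0.801). Mcm3 was at 14.9 and 10.6 CPM against 10.7 and 10.3 CPM (-0.27 ± 0.65, adjusted p = 0.871). Missing the threshold does not show that these 4 genes were equal in the arms.

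Other features of the libraries moved with the arms. In GFP-negative cells the summed keratinocyte markers were at 2440 and 2770 CPM in arm I and at 356 and 528 CPM in arm II, and the 13 phagocyte markers in the table were at 891 and 929 CPM against 64.7 and 91.3 CPM. The T cell markers were lower as well, with a sum of 10000 CPM in both arm I libraries and of 6060 and 5690 CPM in arm II, and 4 of the 10 were called lower. Mitochondrial genes held 28.4 and 28.6% of counts in arm I and 35.8 and 36.7% in arm II. Arm II libraries were also shallower, at 2442825 and 2519106 counts against 5440609 and 6741144. With every library thinned to the depth of the smallest, an alternative chosen after the data were seen, 19 genes were called, and Aurkb was not among them. The part of the other cells, of the T cell markers and of RNA quality in the result was not tested. Of the 19 genes, 11 kept their call under every alternative run, among them Stmn1, Cdk1, Ccnb2, Top2a, Ube2c and Ccna2.

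In GFP-positive cells the arms differed in fewer genes. Arm II was lower for 7 genes and higher for 1 of the 44, against 2.24% and 0.923% of all tested genes (3.17% either way), with a median log2 fold change of -0.81 (-0.09 over all genes). Stmn1 was at 34.0 and 30.2 CPM in arm I and at 12.7 and 9.36 CPM in arm II (-1.53 ± 0.23, adjusted p = 0.00039). Tubb5 (-0.92 ± 0.17), Top2a (-2.66 ± 0.49), Ube2c (-2.09 ± 0.48) and Rrm2 (-3.41 ± 0.75) were lower too, and so were Uhrf1 (at least 4.46-fold) and Ccna2, which had 1 count in arm II (18.6-fold, 3.16 to 750). Cks2 was the 1 gene that was higher, at 105 and 65.8 CPM in arm I and 156 and 176 CPM in arm II (0.95 ± 0.25, adjusted p = 0.039). Cdk1, called in GFP-negative cells, was at 4.89 and 3.64 CPM against 11.1 and 1.22 CPM here (0.57 ± 0.57, adjusted p = 0.694), with overlapping libraries. Ccnb2 was at 5.42 and 1.91 CPM against 1.63 and 0 CPM (-2.05 ± 0.82, adjusted p = 0.22), and Mki67 at 2.38 and 4.40 CPM against 0.653 and 2.03 CPM (-1.35 ± 0.81, adjusted p = 0.459).

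This count rested on single libraries. It was 2 without arm II GFP-positive replicate 1, 4 without replicate 2, and 5 without either of the arm I GFP-positive replicates. Stmn1 alone kept its call under every alternative. Keratinocyte markers were again higher in arm I (1230 and 1540 CPM) than in arm II (580 and 683 CPM), and so were phagocyte markers (849 and 677 CPM against 311 and 370 CPM) and neutrophil markers (76.5 and 85.8 CPM against 38.6 and 11.6 CPM). Mitochondrial genes held 22.4 and 25.9% of counts in arm I and 29.3 and 30.1% in arm II, and totals were 6291020 and 8515297 counts against 2678738 and 3262545. The part of these in the result was not tested. Pcna, H2afz, Hmgb2, Mcm3 and Birc5 did not pass the test, with log2 fold changes from -0.23 to 0.38.

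**Figure D3:**
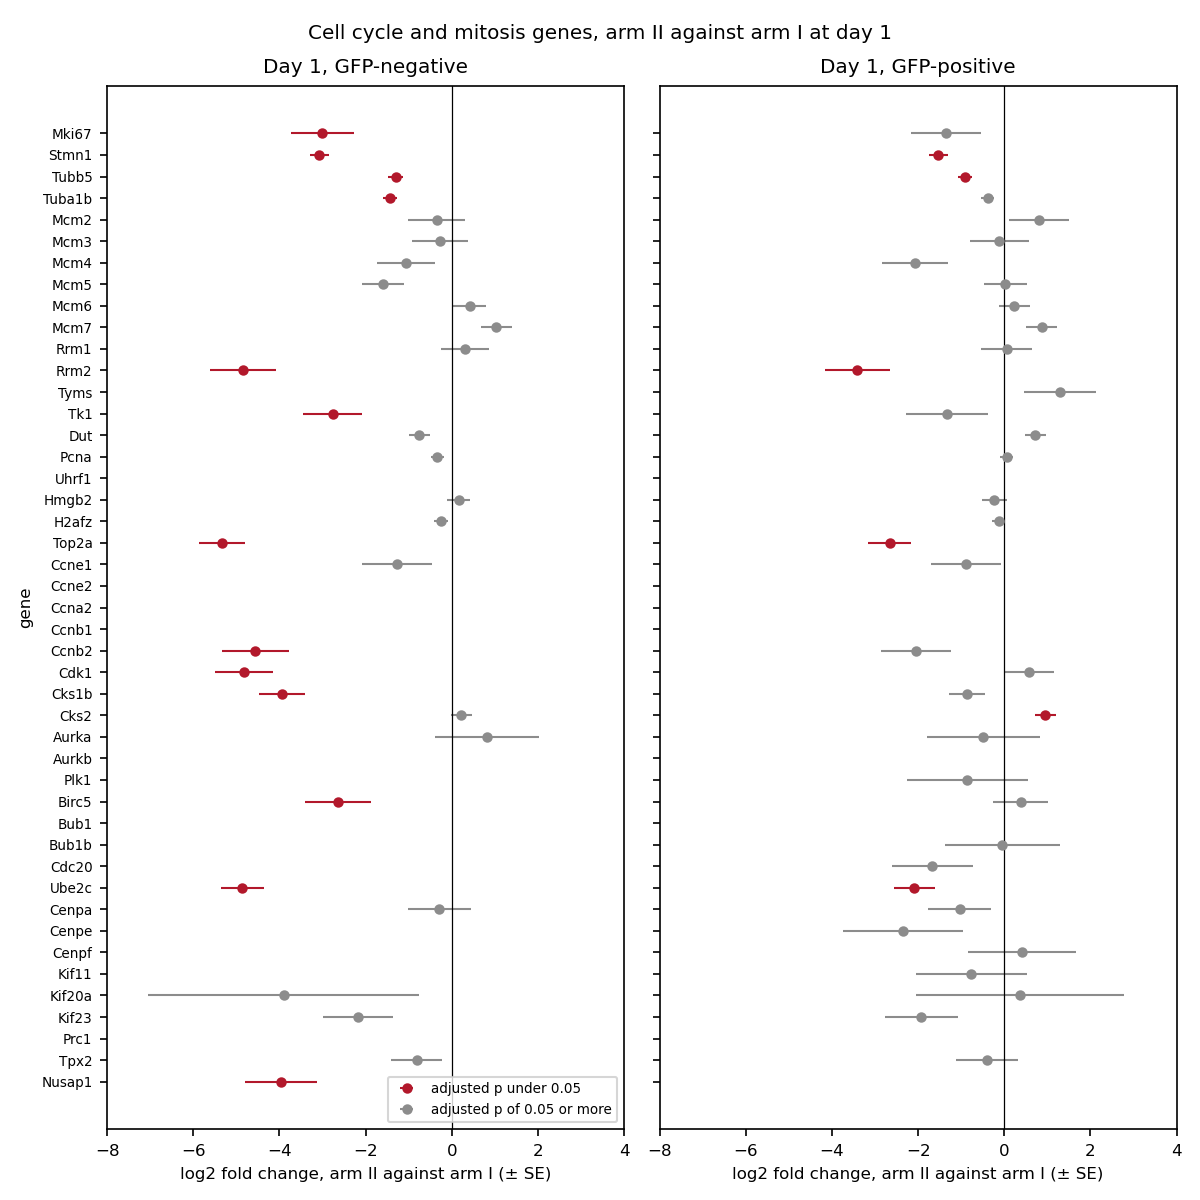
Log2 fold change of arm II against arm I on day 1 with its standard error, 1 row per gene, in GFP-negative (left) and GFP-positive (right) cells, in red where the adjusted p was under 0.05. In GFP-negative cells 31 genes are drawn and in GFP-positive cells 37. The others were untested or had so few counts in a set that a count ratio or floor was given instead. Kif20a, with 3 or fewer counts in a set but no such ratio or floor, is drawn. Cks2 is the 1 red point above 0.

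Within arm I, GFP-positive cells carried less of the module than GFP-negative cells of the same arm. Of 44 genes 14 were lower and 0 higher, against 3.03% and 2.33% of all tested genes (5.36% either way), with a median log2 fold change of -1.12 (-0.03 over all genes). Stmn1 fell by 1.93 on the log2 scale (SE 0.20, adjusted p = 2.79e-06) and Cdk1 by 3.24 (SE 0.52, adjusted p = 0.000527), from the per-library values given above. Ccnb2 (-2.37 ± 0.56, adjusted p = 0.013), Top2a (-1.85 ± 0.36), Ube2c (-2.08 ± 0.36), Mki67 (-2.53 ± 0.66, adjusted p = 0.0243), Tubb5 (-1.10 ± 0.17) and Tuba1b (-0.92 ± 0.15) were also lower. The others were Tk1, Dut, Nusap1, Tpx2, Mcm5 and Ccna2. Pcna did not follow, at 212 and 201 CPM in GFP-negative and 289.8 and 283 CPM in GFP-positive cells (0.47 ± 0.15, adjusted p = 0.0798). Without arm I GFP-negative replicate 2 the count was 8, and it was 9 without GFP-positive replicate 1 and 7 without GFP-positive replicate 2. Stmn1, Tubb5, Tuba1b, Cdk1 and Ube2c kept their call in all of the alternatives. The keratinocyte sum was also lower in GFP-positive cells of arm I, at 1230 and 1540 CPM against 2440 and 2770 CPM. The T cell sum was at 6610 and 6780 CPM against 10000 CPM in both GFP-negative libraries, with 4 of 10 T cell genes called lower and 0 higher. The part of both was not tested.

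Within arm II the module was low in both GFP states and the called genes moved both ways. GFP-positive cells were higher for 4 genes and lower for 2, against 4.06% and 4.01% of all tested genes (8.07% either way). Pcna was at 167 and 159.5 CPM in GFP-negative and 309.8 and 287 CPM in GFP-positive cells (0.87 ± 0.15, adjusted p = 0.00121). Cks1b was at 1.24 and 1.59 CPM against 5.22 and 12.6 CPM (2.61 ± 0.57, adjusted p = 0.00637), and Cks2 at 101 and 85.3 CPM against 156 and 176 CPM (0.83 ± 0.25, adjusted p = 0.0475). Tyms, the thymidylate synthase gene, was higher and had 1 count in GFP-negative cells (25.1-fold, 4.15 to 1030). Tubb5 (-0.71 ± 0.17) and Hmgb2 (-1.01 ± 0.29) were lower. Leaving out arm II GFP-negative replicate 2 or GFP-positive replicate 1 left 2 calls, and Pcna kept its call throughout. Phagocyte sums were 64.7 and 91.3 CPM in GFP-negative and 311 and 370 CPM in GFP-positive cells, with 4 of 11 tested phagocyte genes called higher, and 5 of 16 keratinocyte genes were called higher and 1 lower. Mitochondrial genes held 35.8 and 36.7% of counts against 29.3 and 30.1%. The part of these was not tested.

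Whether the GFP difference itself differed between the arms was tested by the interaction. It passed for 5 of the 44 genes, Cdk1, Stmn1, Tuba1b, Cks1b and Dut, each with a GFP difference more positive in arm II, against 0.639% of all tested genes in that direction and 0.889% in either. For Cdk1 the 2 differences were -3.24 in arm I and 2.16 ± 0.77 in arm II (adjusted p = 0.0955 for the latter), and their difference was 5.40 ± 0.90 (adjusted p = 0.00433). For Stmn1 the difference of differences was 1.55 ± 0.32 (adjusted p = 0.0215). In the same interaction 3 of 10 T cell genes, 4 of 16 keratinocyte genes and 3 of 11 phagocyte genes were called higher, and 1 keratinocyte gene lower, and their part was not tested. None of the 5 kept its call in all alternatives. Left-out libraries gave counts of 1 (arm I GFP-positive replicate 2, or arm II GFP-negative replicate 2), 2 (arm I GFP-negative replicate 1, arm I GFP-positive replicate 1, or arm II GFP-positive replicate 1) and 3 (arm I GFP-negative replicate 2).

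Against day 0 acetone, all 4 day 1 sets had lower genes in the module, fewest in arm I GFP-negative cells. These 4 comparisons, and those of K, L and M, share the same 3 day 0 libraries. In arm I GFP-negative cells 4 genes were lower and 0 higher, against 1.16% and 2.78% of all genes (3.94% either way). They were Tubb5 (-0.97 ± 0.15, adjusted p = 0.000662), Stmn1 (-1.0 ± 0.18, adjusted p = 0.00225), Birc5 (-2.08 ± 0.52, adjusted p = 0.0252) and H2afz (-0.58 ± 0.15, adjusted p = 0.0283). This small count was 2 without day 0 acetone replicate 1 or 2 and 1 without arm I GFP-negative replicate 2. Mki67 was at 31.0, 20.9 and 13.7 CPM on day 0 and at 15.5 and 23.5 CPM in that set (-0.17 ± 0.55, adjusted p = 0.939).

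In arm I GFP-positive cells 24 genes were lower than on day 0 and 0 higher, against 9.07% and 9.92% of all genes (19.0% either way). Stmn1 went from 274, 227 and 234 CPM to 34.0 and 30.2 CPM (-2.93 ± 0.20, adjusted p = 2.23e-09). Cdk1 (-3.83 ± 0.51), Ccnb2 (-3.40 ± 0.55), Top2a (-2.36 ± 0.35), Tk1 (-4.48 ± 0.61), Mki67 (-2.70 ± 0.63), Birc5 (-3.26 ± 0.56), Rrm2 (-2.30 ± 0.53) and Ube2c (-2.95 ± 0.35) were among the 24, as were Tubb5, Tuba1b, H2afz and Hmgb2. By role they held 3 of 3 tubulin and stathmin genes, 4 of 5 nucleotide supply genes, 3 of 6 MCM genes and 0 of 3 centromere genes. Pcna was at 269, 294 and 246 CPM on day 0 and at 289.8 and 283 CPM in these cells (0.09 ± 0.14, adjusted p = 0.729), and Mcm3 did not pass either (-1.58 ± 0.61, adjusted p = 0.0806).

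In arm II GFP-negative cells 27 genes were lower than on day 0 and 0 higher, against 5.15% and 3.48% of all genes (8.63% either way). Stmn1 (-4.07 ± 0.22, adjusted p = 5.18e-10), Top2a (-5.85 ± 0.52), Ube2c (-5.74 ± 0.49), Cdk1 (-5.42 ± 0.65), Ccnb2 (-5.59 ± 0.75), Rrm2 (-5.74 ± 0.74), Cks1b (-4.86 ± 0.51), Birc5 (-4.71 ± 0.71) and Mki67 (-3.17 ± 0.70) were among them. Pcna was lower here (-0.72 ± 0.14, adjusted p = 0.00265), while Hmgb2 (-0.34 ± 0.25, adjusted p = 0.442), Mcm3 (-0.63 ± 0.60, adjusted p = 0.572) and the other 5 MCM genes did not pass. Ccna2 had 1 count in arm II, and day 0 exceeded it 146-fold (26.1 to 5780).

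In arm II GFP-positive cells 27 genes were lower and 1 higher, against 10.5% and 8.39% of all genes (18.9% either way). Stmn1 (-4.46 ± 0.23, adjusted p = 3.27e-11), Tubb5 (-2.98 ± 0.17), Tuba1b (-1.79 ± 0.15), Ube2c (-5.04 ± 0.45), Top2a (-5.03 ± 0.47), Ccnb2 (-5.46 ± 0.72), Rrm2 (-5.71 ± 0.73), Cdk1 (-3.26 ± 0.51), Mki67 (-4.05 ± 0.76) and Birc5 (-2.88 ± 0.58) were lower. Cks2 was the higher gene, at 96.7, 104 and 117 CPM on day 0 and at 156 and 176 CPM in these cells (0.65 ± 0.22, adjusted p = 0.0486). Pcna was not called (0.15 ± 0.14, adjusted p = 0.501), nor was Mcm3 (-1.69 ± 0.65, adjusted p = 0.0749). Over all 7 comparisons with day 0 acetone, Stmn1 and Tubb5 were called in each. Keratinocyte sums of the 4 day 1 sets (356 to 2770 CPM) all lay below those of day 0 (2980 to 3730 CPM). T cell sums were 11600 to 13800 CPM on day 0, 10000 CPM in arm I GFP-negative cells and 5690 to 6780 CPM in the other 3 day 1 sets, where 7, 5 and 7 of 10 T cell genes were called lower (arm I GFP-positive, arm II GFP-negative and arm II GFP-positive). Phagocyte sums were 677 to 929 CPM in arm I against 356 to 511 CPM on day 0, and neutrophil sums 76.5 to 89.2 CPM against 1.72 to 10.7 CPM. The part of these in the results was not tested.

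**Figure D4:**
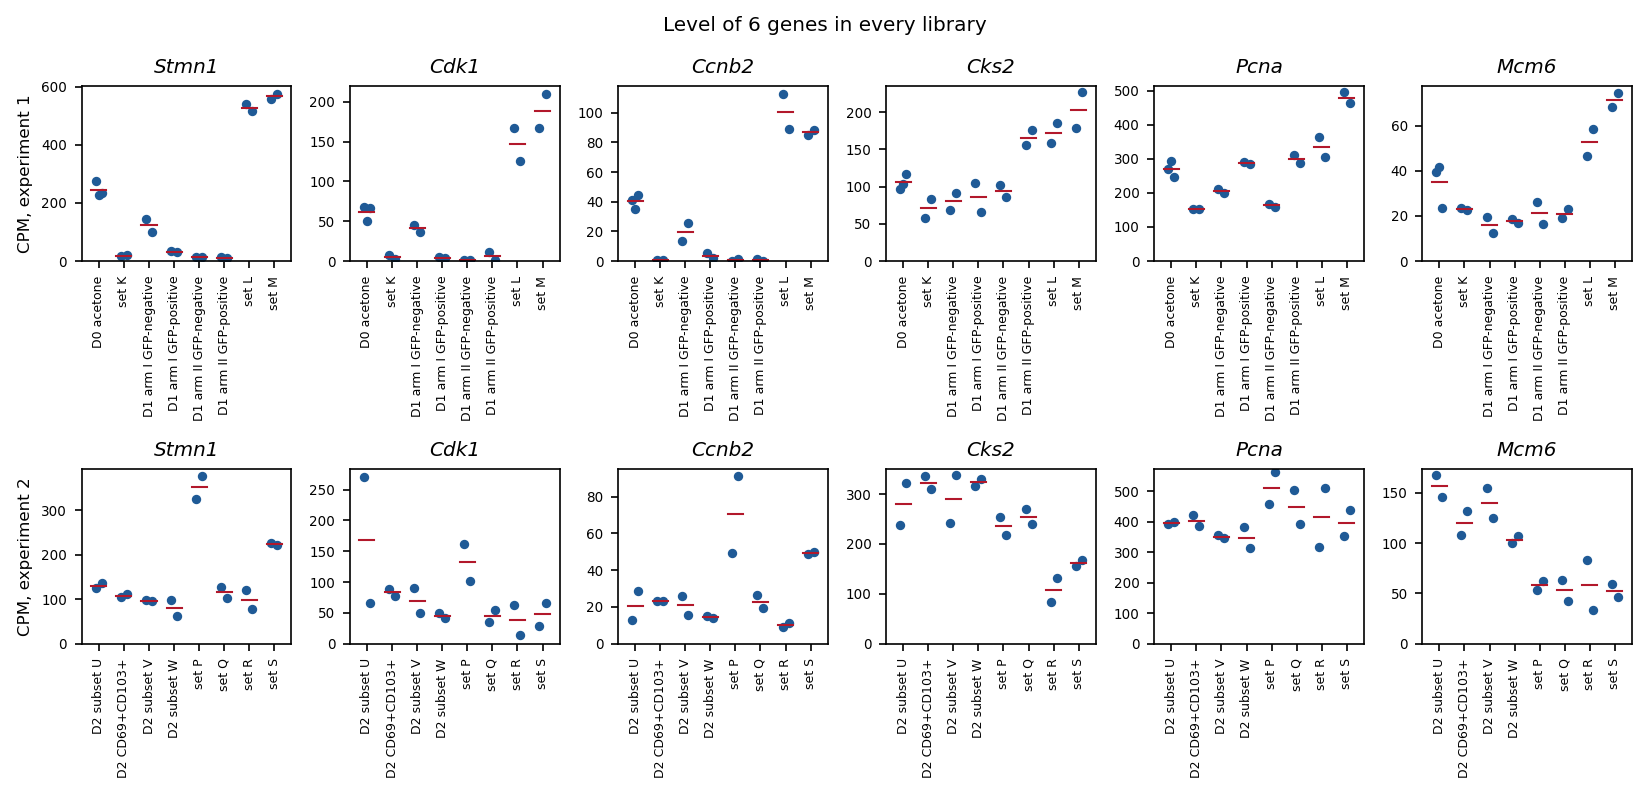
CPM in every library (dots) with the set mean (red line) for Stmn1, Cdk1, Ccnb2, Cks2, Pcna and Mcm6, in the first experiment (top) and the second (bottom). Stmn1, Cdk1 and Ccnb2 are near 0 in arm II and high in L and M, whereas Pcna and Cks2 keep a level above 58 CPM in every library.

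Set K was low across the module and sets L and M were high. In set K 24 genes were lower than in day 0 acetone and 0 higher, against 2.34% and 1.19% of all genes (3.53% either way). Stmn1 was at 16.1 and 20.5 CPM (-3.74 ± 0.22, adjusted p = 2.07e-09), Cdk1 at 7.48 and 2.39 CPM (-3.67 ± 0.54, adjusted p = 0.000324), Ccnb2 at 0.787 and 1.03 CPM (-5.42 ± 0.72, adjusted p = 9.02e-05) and Mki67 at 2.36 and 0.342 CPM (-4.04 ± 0.75, adjusted p = 0.00293). Each lay below all 3 day 0 libraries. Tuba1b (-2.32 ± 0.16), Top2a (-4.05 ± 0.42), Cks1b (-4.37 ± 0.48), Ube2c (-3.15 ± 0.37), Birc5 (-2.75 ± 0.57), Rrm2 (-2.34 ± 0.55), Tubb5 (-1.32 ± 0.16) and H2afz (-0.75 ± 0.15) were lower as well. Pcna was at 152 CPM in both K libraries (-0.83 ± 0.14, adjusted p = 0.00138). Uhrf1 had no count in K and was at least 15.3-fold higher on day 0. Hmgb2 (-0.56 ± 0.25, adjusted p = 0.293) and Mcm3 (-1.14 ± 0.62, adjusted p = 0.399) did not pass. The keratinocyte sum was 1790 and 1830 CPM in K and 2980 to 3730 CPM on day 0, the phagocyte sum 74.5 and 124 CPM against 356 to 511 CPM, and the T cell sum 7630 and 8270 CPM against 11600 to 13800 CPM. Mitochondrial genes took 34.9 and 36.3% of counts against 24.9 to 31.5%. The part of these in the result was not tested.

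In set L 4 genes were higher than in day 0 acetone and 0 lower, against 0.276% and 0.621% of all genes (0.897% either way), with a median log2 fold change of 0.98 over the 44 genes (-0.01 over all). Stmn1 was at 538 and 516 CPM (1.10 ± 0.17, adjusted p = 0.00144). Tubb5 (0.76 ± 0.15, adjusted p = 0.011), H2afz (0.70 ± 0.14, adjusted p = 0.0173) and Ube2c (1.41 ± 0.29, adjusted p = 0.0203) were the others. Cdk1 at 167 and 126 CPM (1.25 ± 0.40, adjusted p = 0.228), Ccnb2 at 112 and 88.9 CPM (1.33 ± 0.44, adjusted p = 0.266) and Mki67 at 36.7 and 44.3 CPM (0.89 ± 0.54, adjusted p = 0.685) did not pass, although both L libraries lay above all 3 day 0 libraries for each. The count was 1 without either L replicate or without day 0 acetone replicate 3, and 2 without day 0 acetone replicate 2. Keratinocyte markers summed to 974 and 1000 CPM in L, below the 2980 to 3730 CPM of day 0. Fibroblast markers summed to 5.96 and 3.83 CPM in L against 46.8 to 176 CPM. The part of both in the result was not tested.

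Set M showed the same direction with more calls. In it 15 genes were higher and 0 lower, against 2.86% and 1.70% of all genes (4.56% either way), with a median of 1.19 (-0.02 over all). Tuba1b was at 1641 and 1572 CPM against 803, 765 and 679 CPM on day 0 (1.10 ± 0.14, adjusted p = 7.27e-05), and Dut, which removes dUTP, at 249.9 and 259 CPM against 88.4, 96.6 and 86.5 CPM (1.49 ± 0.20, adjusted p = 0.00018). Stmn1 (1.21 ± 0.17), H2afz (0.94 ± 0.14), Tubb5 (0.95 ± 0.15), Pcna (0.83 ± 0.14), Hmgb2 (1.18 ± 0.24), Cdk1 (1.61 ± 0.40) and Birc5 (1.61 ± 0.45) were also higher, with Ube2c, Mcm5, Mcm7, Cks1b, Cks2 and Ccne1. Pcna reached 496 and 463 CPM, above every other library of the experiment. Mki67 was at 28.9 and 25.1 CPM, inside the day 0 range (0.30 ± 0.54, adjusted p = 0.889), and Top2a (0.75 ± 0.31, adjusted p = 0.212), Ccnb2 (1.11 ± 0.44, adjusted p = 0.204), Rrm2 (1.47 ± 0.47, adjusted p = 0.109) and Mcm3 (1.39 ± 0.55, adjusted p = 0.202) did not pass. Without either M replicate 9 genes were called. The keratinocyte sum was 5480 and 5810 CPM in M, above day 0. Neutrophil markers summed to 37.1 and 30.3 CPM against 1.72 to 10.7 CPM on day 0, and fibroblast markers to 10.4 and 15.5 CPM against 46.8 to 176 CPM. The T cell sum was 10900 and 10700 CPM against 11600 to 13800 CPM. The part of these in the result was not tested.

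In the second experiment, the day 11 and day 42 sets as 1 group differed from the day 2 CD69+CD103+ set mainly in the MCM genes. Of 45 genes tested 8 were lower and 0 higher, against 4.89% and 3.33% of all 12236 tested genes (8.21% either way), with a median log2 fold change of -0.48 (-0.07 over all). All 6 MCM genes were among the 8, and the other 2 were Cks2 and the cyclin gene Ccnb1. Mcm6 (chr1, printed above) was at 108 and 132 CPM on day 2 and at 33.4 to 83.4 CPM, median 56.3, in the 8 later libraries (-1.11 ± 0.25, adjusted p = 0.00824), below both day 2 libraries in all 8. Mcm4 was at 66.8 and 53.4 CPM against 8.34 to 52.4 CPM, median 21.4 (-1.44 ± 0.30, adjusted p = 0.00476), again without overlap. Mcm5 was at 71.6 and 58.9 CPM against 5.90 to 59.6 CPM, median 18.4 (-1.68 ± 0.40, adjusted p = 0.0115), where only set P overlapped. Mcm3 (-1.47 ± 0.36), Mcm2 (-1.21 ± 0.34) and Mcm7 (-0.92 ± 0.27) were lower too. Cks2 was at 336 and 311 CPM against 82.9 to 269 CPM, median 193 (-0.85 ± 0.18, adjusted p = 0.00451).

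Most of the mitotic genes were not called. Mki67 was at 36.0 and 68.7 CPM on day 2 and at 27.4 to 175 CPM, median 84.2, later (0.56 ± 0.31, adjusted p = 0.345), Stmn1 at 106 and 111 CPM against 77.6 to 378 CPM, median 175 (0.68 ± 0.21, adjusted p = 0.0542). Top2a (-0.35 ± 0.27), Cdk1 (-0.54 ± 0.50), Ccnb2 (0.37 ± 0.36), Birc5 (-0.11 ± 0.37), Rrm2 (-0.30 ± 0.21), Tubb5 (-0.23 ± 0.13), Pcna (0.12 ± 0.18), H2afz (0.15 ± 0.14) and Hmgb2 (0.12 ± 0.23) had adjusted p-values from 0.345 to 0.95. The MCM result leaned on the 2 day 2 libraries: without replicate 1 of that set 1 gene was called and without replicate 2, 2 genes, and no gene kept its call in all alternatives. The day 2 set also had higher keratinocyte sums (5110 and 7350 CPM against 2100 to 5260 CPM) and neutrophil sums (122 and 130 CPM, over 7 genes in the table, against 2.72 to 18.3 CPM). The 6 genes listed as CD4 and regulatory T cell markers had a higher sum as well (868 and 969 CPM against 119 to 446 CPM). Most of that day 2 sum came from Ctla4 and Il2ra. In no library did Cd4 exceed 2.72 CPM, Foxp3 27.4 CPM, Cd40lg 38.1 CPM or Zbtb7b 28.4 CPM. The part of these sums was not tested.

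Among the 4 later sets, P stood highest and R or Q lowest. A joint test of any difference among P, Q, R and S called 11 genes, against 2.12% of all tested genes: Rrm2, Stmn1, Tubb5, Ccnb2, Ube2c, Cks2, Dut, Ccnb1, Mki67, Cks1b and Ccna2. Stmn1 was at 326 and 378 CPM in P, 228 and 221 CPM in S, 128 and 103 CPM in Q and 121 and 77.6 CPM in R (adjusted p = 0.000989). Ccnb2 was at 49.5 and 91.1 CPM in P, 48.8 and 50.1 CPM in S, 26.4 and 19.3 CPM in Q and 9.13 and 11.5 CPM in R (adjusted p = 0.0103). Mki67 was at 138 and 175 CPM in P, 79.8 and 92.3 CPM in S, 88.5 and 44.3 CPM in Q and 51.2 and 27.4 CPM in R (adjusted p = 0.0327), with S and Q overlapping. Rrm2 was at 381 and 528 CPM in P and at 97.1 to 233 CPM in the other 3 sets (adjusted p = 0.000608). P was separate from all other sets for these 4 genes, except that its lower Ccnb2 library lay within the range of S.

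Cks2 had another order among these sets. It was at 269 and 239 CPM in Q, 255 and 219 CPM in P, 155 and 168 CPM in S and 82.9 and 131 CPM in R (adjusted p = 0.0216). Q, among the lowest sets for most of the module, was therefore among the highest for Cks2. None of the MCM genes, the kinase genes, the centromere genes or the spindle genes was called in the joint test. Pcna (adjusted p = 0.713), Mcm3 (0.508), Birc5 (0.424), Cdk1 (0.338), H2afz (0.284), Hmgb2 (0.252) and Top2a (0.184) did not pass. Without set P replicate 2 the joint test called 6 genes. Keratinocyte sums were 3720 and 3970 CPM in P, 3410 and 3510 CPM in Q, 4110 and 5260 CPM in R and 2100 and 2370 CPM in S. Phagocyte sums were 950 and 988 CPM in P, 318 CPM in both Q libraries, 566 and 734 CPM in R and 428 and 457 CPM in S, and the part of either was not tested.

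On day 2 the module means of the 4 subsets did not overlap, from 5.33 in U to 4.43 in W, and few single genes were called. Against the mean of U, V and W, the CD69+CD103+ set differed in 0 of 45 genes by edgeR's quasi-likelihood test. Of all tested genes 0.368% were called (0.319% higher, 0.0490% lower). At an unadjusted p under 0.05 in that test stood 4 of the 45 genes, near the share of all genes (814 of 12236). DESeq2 called 1 gene. The joint test among the 4 subsets called 3 genes, Rrm2, Tuba1b and Tubb5, against 1.21% of all tested genes. Rrm2 was at 319 and 368 CPM in U, 213 and 246 CPM in CD69+CD103+ cells, 88.2 and 164 CPM in V and 97.2 and 95.5 CPM in W (adjusted p = 0.00338). Tuba1b was at 561 and 604 CPM in U, 522 and 466 CPM in CD69+CD103+ cells, 287 CPM in both V libraries and 306 and 223 CPM in W (adjusted p = 0.00518). Tubb5 had the same order of U and CD69+CD103+ cells above V and W (adjusted p = 0.0133). Mki67 was at 65.5 and 70.8 CPM in U and 30.7 and 28.9 CPM in W and did not pass (adjusted p = 0.518). Keratinocyte sums were 3270 and 2840 CPM in U and 5110 and 7350 CPM in CD69+CD103+ cells. They were 4290 and 4960 CPM in V and 5620 and 6710 CPM in W. In the same order, phagocyte sums were 140 and 132, 582 and 537, 308 and 348, and 686 and 637 CPM. Neutrophil sums were 13.3 and 12.5, 122 and 130, 64.6 and 111, and 101 and 94.4 CPM. The part of these was not tested.

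**Figure D5:**
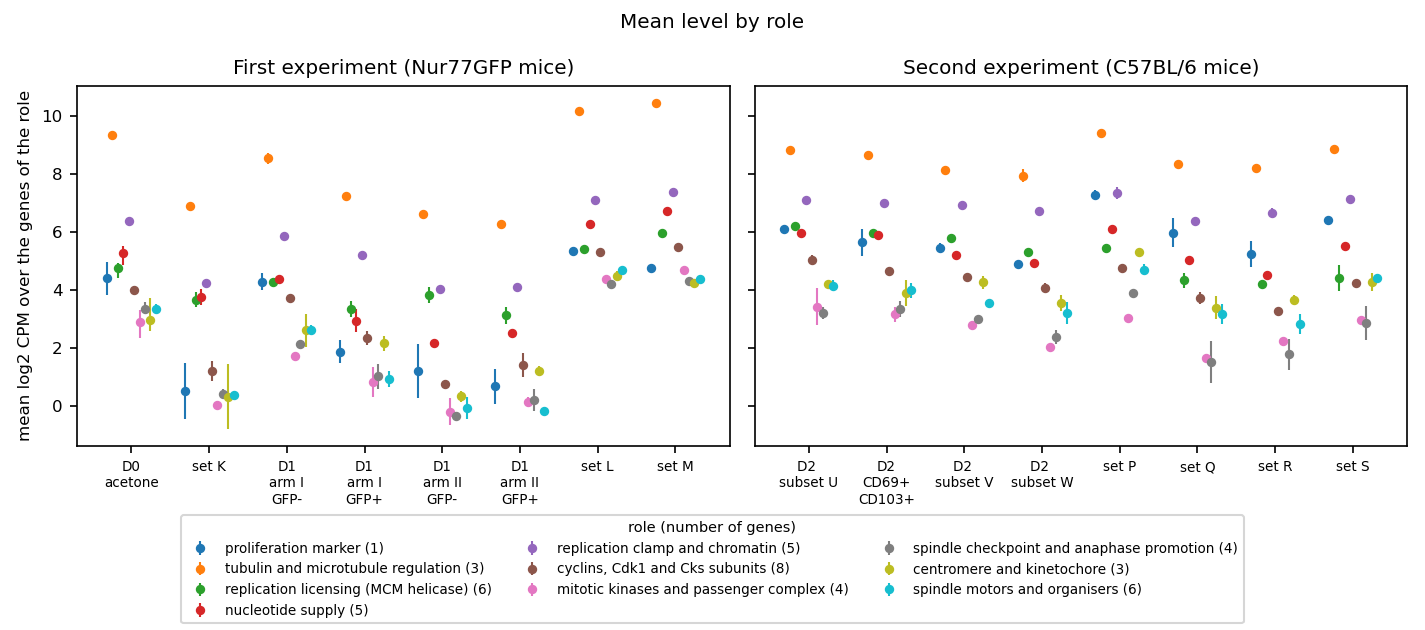
Mean log2 CPM of the genes of each role by sorted set, with bars from the lowest to the highest library. The mitotic kinase, checkpoint and spindle roles lie between -0.33 and 0.42 in set K and arm II, the centromere role between 0.32 and 1.22, the MCM genes vary from 3.13 to 5.98 over the sets of the first experiment, and the MCM mean of the second is lower in Q, R and S than on day 2.

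The roles had unequal ranges in the first experiment. Mitotic kinase genes averaged 2.90 log2 CPM on day 0, 0.02 in set K, -0.20 in arm II GFP-negative and 0.13 in arm II GFP-positive cells, and 4.40 and 4.70 in L and M. Spindle checkpoint and anaphase genes averaged 3.33 on day 0 and 0.42, -0.33 and 0.20 in the same low sets, and spindle motors 3.36 and 0.39, -0.07 and -0.17. MCM genes averaged 4.75 on day 0 and 3.66, 3.83 and 3.13 there. A prior count of 2 lifts levels near 0 in these means. In the second experiment MCM genes averaged 5.32 to 6.21 on day 2 and 4.22 to 5.44 in the later sets, while centromere genes averaged 3.56 to 4.27 and 3.39 to 5.32.

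In none of the 16 comparisons were 6 of the 45 genes called: Ccne2, Aurka, Plk1, Bub1, Cenpa and Kif20a. Most had few reads. Kif20a was at 0 to 4.10 CPM in the first experiment and Bub1 at 0 to 6.92 CPM. Cenpa, which encodes the centromere histone, was different, at 0.787 to 97.1 CPM with a wide spread between libraries of a set (26.9, 11.5 and 35.2 CPM on day 0, 0.787 and 15.4 CPM in set K). At the other end Tubb5 was called in 13 comparisons, Stmn1 in 12 and Ube2c in 10.

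A list of 93 further cell cycle genes (G1 cyclins and inhibitors, transcription factors, replication fork, further mitotic and checkpoint genes), also written with earlier results known, was counted the same way. In GFP-negative cells of day 1, 15 were lower in arm II and 2 higher of 92 tested, where 4.70% and 1.98% of all genes were. Of the 32 further mitotic genes 9 were lower, among them Cdca3, Cdca8, Ncaph and Ncapd2 (-2.51 on the log2 scale). In GFP-positive cells 3 were lower (Ccnd2, E2f1 and Cdca3) and 1 higher, Pttg1, the securin gene (0.85), of 92 tested. These shares are near those of all genes (2.24% and 0.923%). Ccnd2, the cyclin that drives entry into the cycle in T cells, was lower in arm II in both GFP states. It was at 458 and 473 CPM in arm I and 129 and 154 CPM in arm II in GFP-negative cells, and at 1067 and 1081 CPM against 333 and 266 CPM in GFP-positive cells (-1.72 ± 0.17, adjusted p = 9.92e-07 in GFP-negative and -1.84 ± 0.17, adjusted p = 9.42e-07 in GFP-positive cells). Ccnd2 was higher in GFP-positive than in GFP-negative cells of arm I (1.21 ± 0.16, adjusted p = 7.90e-05), where Cdk1 and Stmn1 were lower. It was also higher in GFP-positive cells of arm II (1.08 ± 0.17, adjusted p = 0.000318), where neither Cdk1 nor Stmn1 was called and the Cdk1 estimate was higher too.

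Against day 0 acetone most called genes of the list were lower in the low sets. Of 92 genes, 27 were lower and 5 higher in arm I GFP-positive cells (9.07% and 9.92% of all genes). The counts were 26 and 2 in arm II GFP-negative cells (5.15% and 3.48%) and 31 and 6 in arm II GFP-positive cells (10.5% and 8.39%). In set K they were 14 and 0 (2.34% and 1.19%). In arm I GFP-negative cells 1 was lower and 2 were higher (1.16% and 2.78%). In none of these comparisons did the higher genes exceed the share of all genes. Among the genes that were higher, Btg1, an antiproliferative gene, was so in all 4 day 1 sets (0.60 ± 0.12, 0.85 ± 0.12, 0.64 ± 0.12 and 1.14 ± 0.12 in arm I GFP-negative, arm I GFP-positive, arm II GFP-negative and arm II GFP-positive cells). Cdkn1a, which encodes the Cdk inhibitor p21, was higher in both GFP-positive sets (0.58 ± 0.12 and 0.98 ± 0.12). Myc was higher in both GFP-positive sets and in arm II GFP-negative cells (2.73 ± 0.45, 3.38 ± 0.46 and 2.32 ± 0.46).

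Set M moved both ways, against 2.86% of all genes higher and 1.70% lower. There 5 genes were higher (E2f1, Cdca3, Cenpw, Orc6 and Rfc3, 1.42 to 1.89 on the log2 scale) and 5 lower, all of them G1 genes: Ccnd2 (-1.0 ± 0.15), Cdkn1a (-0.64 ± 0.12), Btg1 (-0.44 ± 0.12), Btg2 (-0.82) and Cdkn1b (-1.31). In set L 1 was higher, Cdca3 (1.62), against 0.276% of all genes. In the second experiment, 5 were higher in the later sets than in day 2 CD69+CD103+ cells and 3 lower of 93 tested, near the shares of all genes (3.33% and 4.89%). Cdkn1a was at 307 and 292 CPM on day 2 and at 660.1 to 1232 CPM, median 911, later (1.57 ± 0.15, adjusted p = 1.67e-06), and Btg2 (1.21), Btg1 (0.52 ± 0.12), Cdkn2c (1.73) and Lin54 (0.94) were higher too. Cdk4 (-0.75), Cdk6 (-1.86) and the fork gene Gins1 (-2.42) were lower, beside the MCM genes above. Within day 2, Cdkn1a was the 1 gene of the list that was higher in CD69+CD103+ cells than in the other subsets (0.68 ± 0.14, adjusted p = 0.0352).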

How the data were processed

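The authors deposited raw counts per gene for each of 33 libraries. The submitters' processing notes name bcl2fastq 2.2, BWA 0.7.15, HTSeq and the GRCm38 genome. Collapsing by molecular barcode, use of strand and handling of shared reads are not given in the sources used here. Rows of external control transcripts (0 to 16 counts per library) were left out. Count tables were read by header code, and sets whose code has no single reading kept neutral names.

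Tests used edgeR 4.0.16 in R 4.3.3: filterByExpr by set, TMM scaling, robust dispersions, 1 mean per set with all libraries of an experiment in 1 fit, and the quasi-likelihood F test, adjusted by Benjamini-Hochberg over all 11588 or 12236 tested genes. A gene was called under an adjusted p of 0.05. The SE is the size of the log2 fold change over the square root of F. CPM of single genes use the TMM-scaled library size, CPM of summed marker genes the plain total, and module means are means of log2 CPM with a prior count of 2. Folds with 0 to 3 counts in a set carry exact 95% counting intervals or a floor of 3 counts. Libraries of a set correlated at 0.910 to 0.960 and 0.911 to 0.959 in log2 CPM, and no 2 libraries were identical. No pairing by replicate letter was detected in the first experiment (28 correlations of deviations, -0.060 to 0.033). Counting noise lowers such correlations, so they cannot show that the letters did not pair the samples. In the second experiment the columns carry no number, and no block was fitted.

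On counts simulated for the arms in GFP-negative cells (11035 genes), the fit recovered 7 of the 100 genes given a 2-fold change and 40 of the 100 given a 4-fold change, and 2 of its 49 calls were false. The changed genes were drawn from those above a minimum mean level, and the rest were given no change in any set. Changed genes with few counts, and data with more changed genes, were not simulated. Members and gene lists were chosen with earlier results of these data known. Named genes are Mki67, Top2a, Stmn1, Tubb5, Pcna, Mcm3, Rrm2, Birc5, Cdk1, Ccnb2, H2afz and Hmgb2, then per comparison the 6 called genes of smallest p, those called against the majority, and from each role of the second list up to 4 called genes. Gene positions are from GENCODE vM21 and promoters from RefSeq, in which 38 of the 45 genes matched. Alternatives were median-of-ratios size factors, no low-count filter, DESeq2 1.42.0, a replicate block, a scaling without mitochondrial and marker genes, another prior count, thinning, and leaving out each library.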

Additional observations from a re-analysis of the deposited data

Results flagged for a closer look

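For 5 genes the difference between GFP-positive and GFP-negative cells on day 1 itself differed between the arms, by an interaction term of edgeR's quasi-likelihood fit over 44 tested genes of the module. The difference of arm II minus that of arm I, on the log2 scale, was 5.40 ± 0.90 for Cdk1 (adjusted p = 0.00433), 1.55 ± 0.32 for Stmn1 (adjusted p = 0.0215), 1.05 ± 0.22 for Tuba1b (adjusted p = 0.0236), 3.08 ± 0.69 for Cks1b (adjusted p = 0.0377) and 1.48 ± 0.34 for Dut (adjusted p = 0.041). Stmn1 and Tuba1b are regulators or parts of microtubules, Cdk1 and Cks1b belong to Cdk complexes, and Dut keeps dUTP out of DNA. In arm I all but Cks1b were called lower in GFP-positive cells, and in arm II Cks1b was called higher there. Arm II libraries of Cdk1 spread widely in GFP-positive cells (11.1 and 1.22 CPM). In that set Cks1b was at 5.22 and 12.6 CPM. No call of the 5 held in every alternative. In the same interaction 3 of 10 T cell genes, 4 of 16 keratinocyte genes and 3 of 11 phagocyte genes were called higher, and their part was not tested.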

How the results depend on the processing

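Counts of called genes kept within 1.5 times of the values given, apart from these. Without the low-count filter the interaction called 8 genes, set L against day 0 acetone 11, the joint test of P to S 19 and that of day 2 subsets 5. DESeq2 called 10 genes for arm I GFP-negative cells against day 0 acetone, 8 for set L and 1 for day 2 CD69+CD103+ cells against the others. A replicate block, in the first experiment alone, where no pairing by replicate was detected, gave 3 for the interaction and 1 for set L. Leaving out 1 library gave 13 to 16 genes between the arms in GFP-negative and 2 to 5 in GFP-positive cells, 7 to 10 and 2 to 6 for GFP within arms I and II, and 1 to 5 for the interaction. It gave 1 to 5 for arm I GFP-negative, 16 to 26 for arm I GFP-positive, 21 to 27 for either arm II set, 16 to 22 for K, 1 to 4 for L and 9 to 11 for M against day 0. In the second experiment it gave 1 to 7 for the later sets against day 2, 6 to 14 for the joint test of these, 2 to 3 for that of day 2 subsets and 0 for CD69+CD103+ cells. With a prior count of 0.5 the module mean was 1.61 in K, 3.81, 2.48, 1.08 and 1.37 in arm I GFP-negative, arm I GFP-positive, arm II GFP-negative and arm II GFP-positive cells, 5.61 in L, 4.79 in V and 4.34 in W. Over the genes past the filter it was 3.97 in arm I GFP-negative cells, 5.75 in L and 5.93 in M. Over single genes, 3107 alternative values were computed, of which 283 lost the call (248 on leaving out a library) and 29 gained one. Among genes called in the main or the alternative fit 0 changed sign, and sign changes of uncalled genes were not counted. Leaving out 1 library and thinning in the joint tests were chosen after seeing the data. Where a value changed, the cause was not tested. With 2 libraries per set, depths down to 2442825 counts and 7 of 100 simulated 2-fold changes recovered, a gene that was not called may still differ.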
